A study of Arabidopsis thaliana with 8 samples.

Results

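The transcripts of 10 Arabidopsis thaliana genes, 9 that write, maintain, guide or erase DNA methylation and the methylation-silenced gene SDC, were compared between seedlings of a ubp5 line and the wild type Col-0. The 9 machinery genes were listed for their function but with earlier results of these data known, so their values are a description. SDC was selected on its values in these same libraries. Its values describe that choice and are given without a test. These 10 are among the 37336 genes counted. The ubp5 line is 1 deletion line made with CRISPR/Cas9 in the Col-0 background, in which a stretch of UBP5, a deubiquitinase of histone H2A, was removed. Whole seedlings of both genotypes were collected at 12 days after germination, with 4 libraries of ubp5 and 4 of Col-0, and no other treatment separated them. Transcripts were counted as molecules by sequencing their 3' ends, and levels are given as counts or as CPM, the counts of a gene per 1000000 counts of its library after TMM scaling. In short, ROS1, the main DNA demethylase of vegetative tissue, was lower in ubp5 than in Col-0, with averages of 6.77 ± 3.54 and 15.8 ± 3.14 CPM (SD, n = 4 each). It passed the adjusted p (0.0222, edgeR), and did so in 6 of 8 fits with 1 library left out. In 5 of those 6 fits the log2 fold change was also at least 1 in size. The methyltransferase genes DRM2 and CMT3 lay lower in every ubp5 library than in any Col-0 library, as did 9.37% of all tested genes. DRM2 passed the adjusted p only narrowly (0.0461, edgeR) and in none of 8 fits with 1 library left out. CMT3, MET1, CMT2, KYP and NRPE1 did not pass the test, and SDC gave 41 counts over the ubp5 libraries against 1 over the Col-0 libraries.

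In plants, cytosines are methylated in the CG, CHG and CHH contexts, where H stands for any base but G. MET1 copies CG methylation after DNA replication. CMT3 and CMT2 act on CHG and CHH sites in a loop with the histone H3 lysine 9 methyltransferase KYP. DRM2 is guided to its sites by small RNAs that depend on the RNA polymerase Pol IV and by targeting through the RNA polymerase Pol V. DDM1 remodels heterochromatin so that these enzymes reach it, and the glycosylase ROS1 cuts methylated cytosines out. SDC encodes an F-box protein and is held silent in leaves by non-CG methylation of tandem repeats in its promoter, through DRM2 and CMT3 together, which made it a reporter of that methylation.

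The repeats upstream of SDC are printed because its silencing in the wild type acts through them. They were read from the RefSeq sequence of TAIR10.1 at chr2:7681861-7682083, on the strand of the gene, and cut after the letters TACAC into 7 units, 6 of 32 bases and 1 of 31. Capitals mark the cytosines of the printed strand.
repeat 1: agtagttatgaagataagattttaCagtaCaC
repeat 2: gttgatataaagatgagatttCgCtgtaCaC
repeat 3: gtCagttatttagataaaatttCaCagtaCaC
repeat 4: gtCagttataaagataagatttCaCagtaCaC
repeat 5: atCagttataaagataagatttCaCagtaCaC
repeat 6: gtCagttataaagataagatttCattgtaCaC
repeat 7: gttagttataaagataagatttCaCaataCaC
Repeat 4 matched the consensus of the 32-base units at all 32 positions, and the other 32-base units matched it at 27 to 31. Over both strands the 223 bases held 13 cytosines in CG, 19 in CHG and 33 in CHH context, so most of the cytosines stood outside CG. The array ended 79 bases before the annotated start of SDC (AT2G17690, chr2:7682162-7684083, plus strand).

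**Figure D1:**
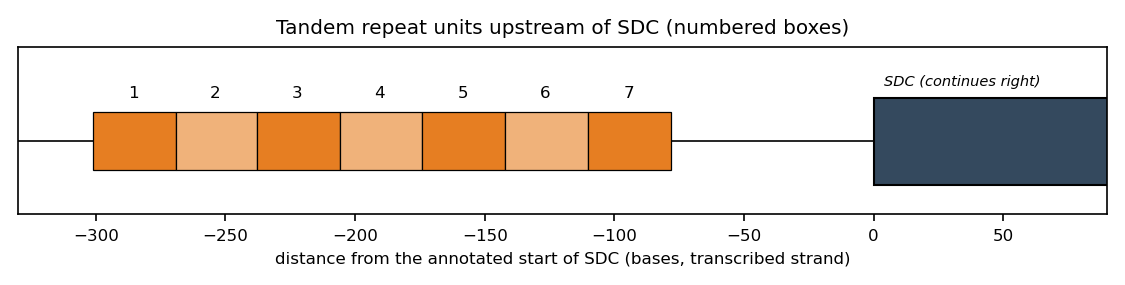
Map of the 7 repeat units (numbered boxes) upstream of SDC, with the distance in bases from the annotated start of the gene on the x axis. The array ends 79 bases before that start.

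The promoter of ROS1 (AT2G36490, chr2:15307907-15314807, minus strand) is printed because ROS1 was the 1 machinery gene past both thresholds used here and because ROS1 transcription is known to depend on the methylation of its own promoter. The window runs from 250 bases before to 50 bases after the annotated start, chr2:15314758-15315057, on the strand of the gene, with CG sites in capitals.
ROS1 promoter: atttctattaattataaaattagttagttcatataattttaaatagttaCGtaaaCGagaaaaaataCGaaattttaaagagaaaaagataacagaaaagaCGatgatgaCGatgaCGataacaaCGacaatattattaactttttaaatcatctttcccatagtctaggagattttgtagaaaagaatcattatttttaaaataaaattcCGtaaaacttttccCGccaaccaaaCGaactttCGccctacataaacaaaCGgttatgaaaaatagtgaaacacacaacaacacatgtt
It held 12 CG sites, a number reached by 12.5% of the 27443 promoter windows of the same length, whose median was 6. Letters of the type bound by E2F, the factors that time transcription to DNA replication (TTTCCCGC or TTTGGCGC, searched on both strands), occurred in 1.21% of those windows. Among the 10 genes the ROS1 window held TTTCCCGC, the CMT3 window held TTTGGCGC and the other 8 held neither. These matches are descriptions of letters, and no methylation was measured in these libraries.

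The totals were 1440510 to 2595285 counts in ubp5 libraries and 2572842 to 2997743 in Col-0 libraries, so a machinery gene was often read from under 20 molecules, and n = 4 each holds throughout. UBP5 itself (AT2G40930) gave 14, 13, 6 and 16 counts in ubp5 against 47, 57, 32 and 51 in Col-0, a log2 fold change of -1.53 (SE 0.25). Its 3' tag may lie outside the deleted stretch, so its counts check the labels and not the deletion. The leaf markers RBCS1A and LHCB1.1 summed to 14570 to 15757 CPM in ubp5 and 18226 to 26037 CPM in Col-0. Root markers summed to 40.8, 21.0, 23.2 and 23.1 CPM in ubp5 against 17.5, 47.2, 48.2 and 44.2 CPM in Col-0, mostly from TIP2;3. TIP2;3 stood at a log2 fold change of -0.76 (SE 0.38) and the root gene SHR at 0.21 (SE 0.29), and neither passed. The shoot meristem gene STM gave 2 to 5 counts in each library. Col-0 replicate 1 stood apart: without it 465 genes were called higher, against 299 with all 8 libraries. In whole seedlings, fewer cells of a type and less RNA per cell cannot be told apart.

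The test was edgeR's quasi-likelihood test over 15649 genes with enough counts, with Benjamini-Hochberg adjustment over all of them. A gene was called where the adjusted p was under 0.05 and the log2 fold change (ubp5 over Col-0) at least 1 in size. Enough counts meant about 3.87 CPM in at least 4 libraries, so a gene that is low in 1 genotype enters through the other. Of the 10 genes, 7 were tested, and DDM1, NRPD1 and SDC were not. None of the 7 was called higher, beside 1.91% of all tested genes, and 1 was called lower (ROS1), beside 2.93%. By the adjusted p alone 0 of 7 passed as higher, beside 4.59%, and 2 of 7 as lower (ROS1 and DRM2), beside 6.34%. Their median log2 fold change was 0.01, against -0.01 over all tested genes. CMT3, DRM2 and ROS1 reached the cutoff in all 4 Col-0 libraries but in 2, 3 and 3 ubp5 libraries. These shares describe a list drawn up with the contrast known, and nothing is read from them.

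**Figure D2:**
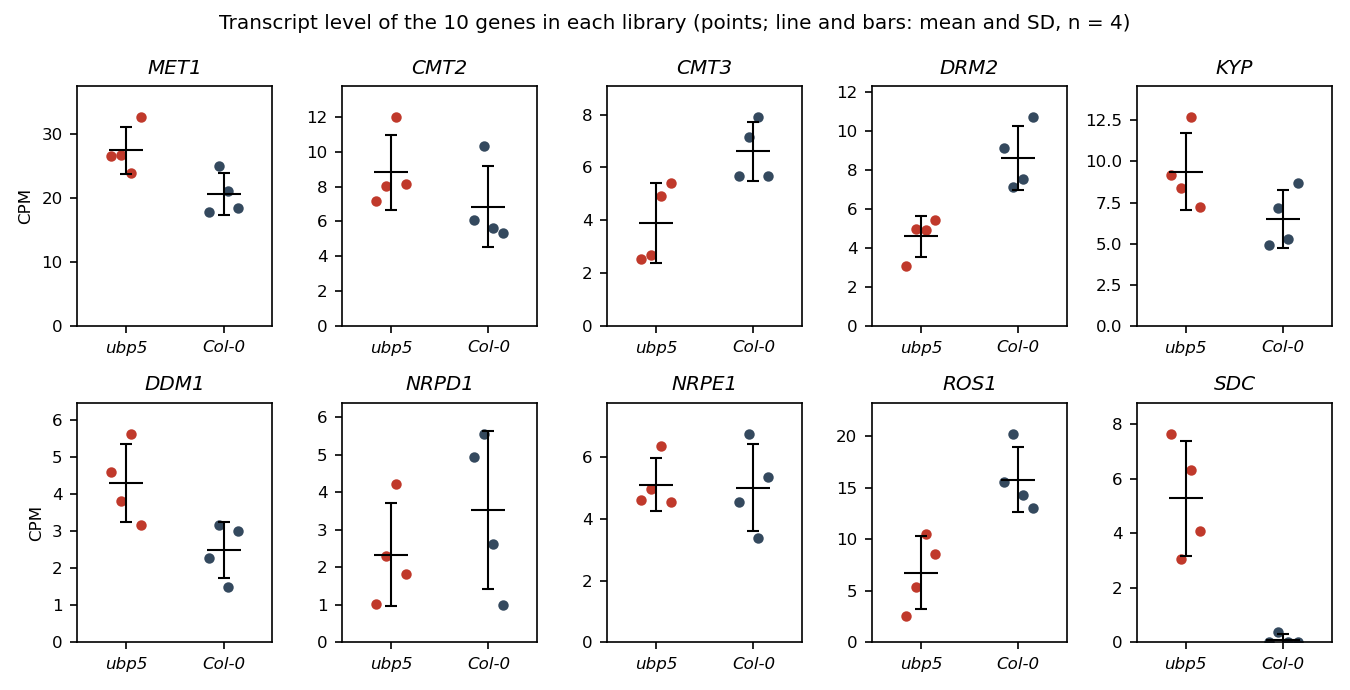
CPM of each of the 10 genes in the 4 ubp5 and the 4 Col-0 libraries (points, one per library; line and bars, mean and SD). ROS1, DRM2 and CMT3 have no ubp5 point as high as a Col-0 point, and SDC is near 0 in Col-0. The groups overlap for MET1, CMT2, KYP, DDM1, NRPD1 and NRPE1.

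Among the methyltransferases, MET1 (AT5G49160, chr5:19932114-19938470, plus strand), which maintains CG methylation, gave 26.5, 26.7, 23.9 and 32.6 CPM in ubp5 against 17.8, 25.0, 21.1 and 18.4 CPM in Col-0. Only Col-0 replicate 2 reached into the ubp5 range, and there only past ubp5 replicate 3. The log2 fold change was 0.43 (SE 0.16), which did not pass at an adjusted p of 0.110 in edgeR. Genes of dividing cells stood mostly on the same side. Their 15 genes summed to 211 to 266 CPM in ubp5 and 133 to 208 CPM in Col-0. Of the 14 tested, 11 had a positive log2 fold change, with a median of 0.56 over the 14. By the adjusted p alone 2 of 14 passed as higher, beside 4.59% of all tested genes, and none was called. Of the 3 most abundant, the ribonucleotide reductase subunits RNR1 and TSO2 stood at log2 fold changes of 0.64 (SE 0.13, adjusted p = 0.00901) and 0.72 (SE 0.16, adjusted p = 0.0115), and the sliding clamp gene PCNA2 at 0.45 (SE 0.16, adjusted p = 0.102). The 3 tested genes at a negative log2 fold change were CYCB1;2 at -0.76 (SE 0.37), CDKB2;1 at -0.30 (SE 0.29) and KNOLLE at -0.12 (SE 0.30). None of these passed. The part of the dividing-cell genes in the MET1 values was not tested.

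DRM2 (AT5G14620, chr5:4715105-4718704, minus strand), the methyltransferase at the end of the small RNA pathway, gave 6, 13, 7 and 12 counts in ubp5 against 24, 18, 20 and 32 in Col-0. In CPM these were 3.06, 4.97, 4.93 and 5.43 in ubp5 against 9.11, 7.14, 7.52 and 10.7 in Col-0, so no ubp5 library reached a Col-0 library. The log2 fold change of -0.90 (SE 0.26) passed the adjusted p narrowly (0.0461) but not the fold threshold. With 1 library left out in turn, the adjusted p lay between 0.0510 and 0.122, above 0.05 in all 8 fits, and DESeq2 gave 0.166.

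CMT3 (AT1G69770, chr1:26248118-26253687, minus strand), the CHG methyltransferase, gave 2.55, 2.67, 4.93 and 5.43 CPM in ubp5 against 5.69, 7.14, 7.90 and 5.69 CPM in Col-0. The groups did not overlap, but the upper ubp5 libraries lay close to the lower Col-0 libraries, and with 5 to 12 counts per ubp5 library the log2 fold change of -0.78 (SE 0.31) did not pass (adjusted p = 0.130, edgeR). Groups without overlap, ubp5 lower, were found for 9.37% of all tested genes and for 3 of the 7 tested here (ROS1, DRM2 and CMT3). In the other direction they were found for 7.87% of all tested genes and for 0 of the 7.

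CMT2 (AT4G19020, chr4:10414428-10421265, plus strand), which methylates CHH sites in heterochromatin, gave 7.14, 8.02, 12.0 and 8.15 CPM in ubp5 against 6.07, 10.3, 5.64 and 5.35 CPM in Col-0. The groups overlapped through Col-0 replicate 2, and the log2 fold change was 0.34 (SE 0.28, adjusted p = 0.484, edgeR). KYP (AT5G13960, chr5:4501362-4506250, plus strand), whose histone mark CMT2 and CMT3 bind, gave 9.18, 8.40, 12.7 and 7.24 CPM in ubp5 against 4.93, 7.14, 5.27 and 8.70 CPM in Col-0. The groups overlapped here as well, with a log2 fold change of 0.48 (SE 0.27, adjusted p = 0.285, edgeR). KYP overlaps AT5G13970 on the other strand, which gave 7 to 13 counts in ubp5 and 42 to 55 in Col-0, and the counting kept the strands apart.

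DDM1 (AT5G66750, chr5:26648897-26653191, plus strand) gave 9, 10, 8 and 7 counts in ubp5 against 6, 8, 4 and 9 in Col-0, too few to enter the test. In CPM the groups met at their edges, with 3.17 to 5.64 in ubp5 and 1.50 to 3.18 in Col-0, and without the count filter the log2 fold change was 0.73 (SE 0.39). NRPD1 (AT1G63020, chr1:23354685-23362589, minus strand), the largest subunit of Pol IV, also stayed untested, with 2, 6, 6 and 4 counts in ubp5 against 13, 14, 7 and 3 in Col-0. Its Col-0 libraries spread over both sides of the ubp5 libraries, and at this depth no difference could be shown (log2 fold change without the filter -0.64, SE 0.53). NRPE1 (AT2G40030, chr2:16714460-16723718, plus strand), the largest subunit of Pol V, averaged 5.11 ± 0.845 CPM in ubp5 and 5.01 ± 1.41 CPM in Col-0. Its log2 fold change was 0.01 (SE 0.29), and each group's range overlapped the other's.

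**Figure D3:**
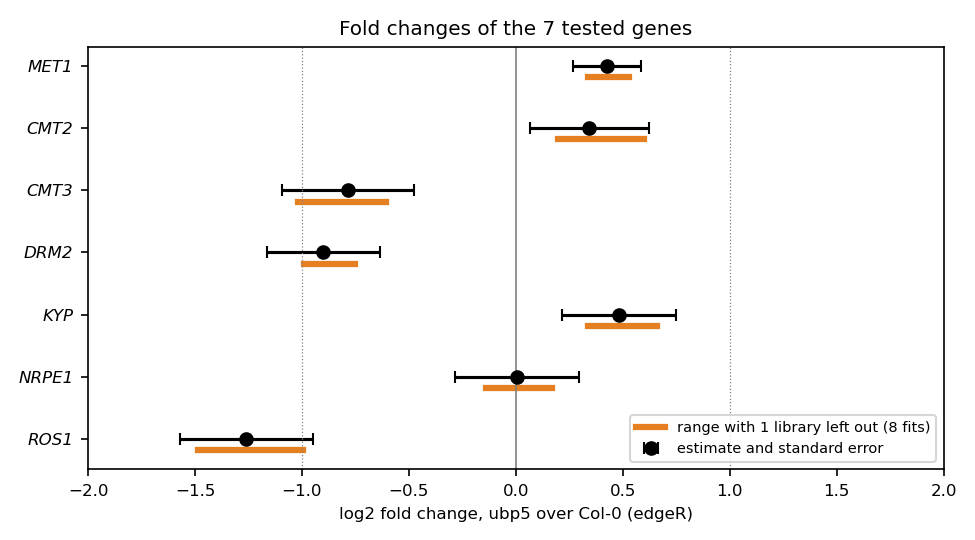
Log2 fold change, ubp5 over Col-0, of the 7 tested genes (point and SE) with the range over 8 fits that each leave 1 library out (bar below). ROS1 at -1.26 is the 1 estimate beyond the dotted lines at -1 and 1, and DRM2 and CMT3 stay below 0 in all 8 of those fits.

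ROS1, which removes methylated cytosines and so works against the enzymes above, gave 5, 14, 15 and 19 counts in ubp5 against 41, 51, 38 and 39 in Col-0. In CPM these were 2.55, 5.35, 10.6 and 8.60 in ubp5 against 15.6, 20.2, 14.3 and 13.0 in Col-0. Every ubp5 library lay below every Col-0 library, and ubp5 replicate 1 was the lowest. The log2 fold change was -1.26 (SE 0.31, adjusted p = 0.0222, edgeR), and DESeq2 gave -1.25 with an adjusted p of 0.0126. It stayed between -1.49 and -0.997 with 1 library left out, and the call was lost without ubp5 replicate 1 (-0.997, adjusted p = 0.0492), ubp5 replicate 2 (-1.15, adjusted p = 0.0719) or Col-0 replicate 2 (-1.12, adjusted p = 0.0559). Per 100 MET1 counts of the same library, ROS1 had 9.62, 20, 44.1 and 26.4 counts in ubp5 against 87.2, 81.0, 67.9 and 70.9 in Col-0. These ratios do not depend on library scaling, but MET1 stood higher in ubp5 (log2 fold change 0.43), which widens the gap.

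The genes whose log2 CPM followed ROS1 most closely over the 8 libraries were TOP6B, a subunit of a DNA topoisomerase VI (Pearson r = 0.988), WDL1, a relative of the microtubule-associated WAVE-DAMPENED proteins (r = 0.984), and CCT2, an enzyme of phosphatidylcholine synthesis (r = 0.979). The 8 points share their genotype groups and library depth, and the correlation is a description. All 3 lay lower in every ubp5 library, which follows from choosing them by their likeness to ROS1. The log2 fold changes were -0.76 (SE 0.29) for TOP6B, -0.65 (SE 0.19) for WDL1 and -0.83 (SE 0.23) for CCT2. Each was smaller in size than that of ROS1. The adjusted p values in edgeR were 0.121, 0.0475 and 0.0379 in the same order, and none of the 3 was called.

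SDC gave 15, 8, 9 and 9 counts in ubp5 against 0, 1, 0 and 0 in Col-0. In CPM these were 7.65, 3.06, 6.34 and 4.07 in ubp5 against 0, 0.397, 0 and 0 in Col-0, so the transcript was counted in all ubp5 libraries and in Col-0 rested on 1 molecule. The ratio of summed counts at equal depth was 54.0, with an exact 95% counting interval of 9.16 to 2183. The interval gives the counting error of a gene selected on these values and is no test of it. SDC missed the count filter because 1 of its ubp5 libraries lay below the cutoff. A gene on the other strand, AT2G17695, overlaps SDC and gave 41 to 93 counts in ubp5 and 60 to 110 in Col-0.

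Further genes and elements silenced by DNA methylation in the wild type were followed as a list of 5, of which 1 was tested. APUM9, an RNA-binding protein of the Pumilio family, gave 31, 32, 15 and 19 counts in ubp5 against 1, 1, 2 and 2 in Col-0, a log2 fold change of 4.29 (SE 0.37, adjusted p = 2.72e-05, edgeR), and it entered the test through its ubp5 libraries alone. The next values were picked out after they were seen. FWA, a homeodomain gene silenced through repeats at its start and known for delaying flowering, gave 4, 5, 1 and 2 counts in ubp5 and 0 in all Col-0 libraries, at least 5.27-fold higher when Col-0 is set at 3 counts over the group. QQS, a gene that affects starch content and is known for natural differences in its silencing, went the other way, with 0 counts in all ubp5 libraries against 3, 6, 1 and 2 in Col-0, at least 3.04-fold lower by the same floor. The genes of this list thus did not stand on 1 side. The remaining 2, AT5G17125 and AT4G08680, entered the list as the elements EVD and ATMU1 and had 0 counts in all 8 libraries. By counting error alone this allows up to 0.366 CPM in ubp5 and 0.278 CPM in Col-0. Reads of near-identical copies cannot be placed, so these 0 counts do not tell an absent transcript from unplaced reads.

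**Figure D4:**
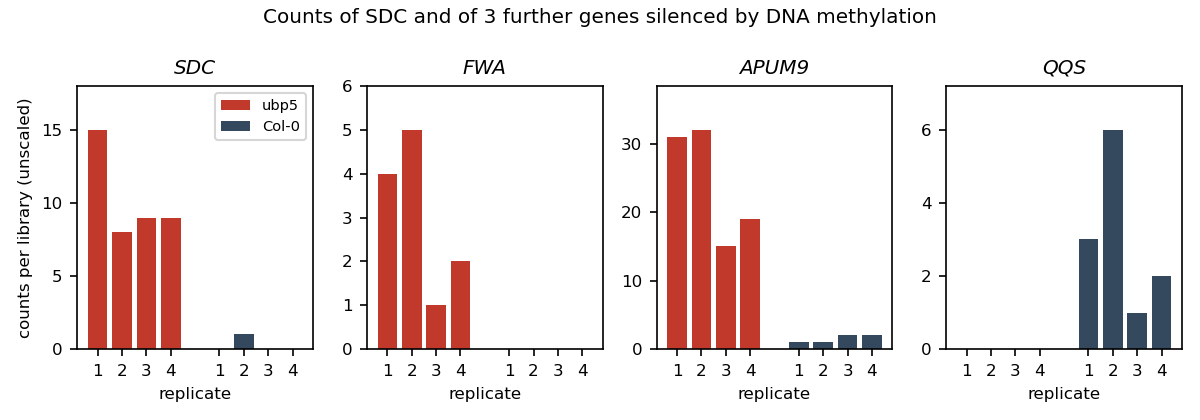
Unscaled counts per library of SDC, FWA, APUM9 and QQS in ubp5 (replicates 1 to 4, left) and Col-0 (replicates 1 to 4, right), each panel with its own axis from 0. SDC, FWA and APUM9 are counted in all ubp5 libraries and at 0 to 2 in Col-0, and QQS is counted in Col-0 alone.

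Genes listed as kept active by ROS1 gave no single direction at these counts, and none of the 4 was tested. Whether ROS1 acts on them in these seedlings was not tested, so they are no readout of its activity. EPF2, a peptide that limits stomatal density, gave 2, 9, 1 and 5 counts in ubp5 against 4, 8, 8 and 3 in Col-0. The immune receptor gene RMG1 gave 0, 1, 1 and 3 counts in ubp5 against 12, 0, 5 and 1 in Col-0, a spread within Col-0 as wide as any difference. The receptor-like protein gene RLP43 gave 7, 8, 4 and 9 counts in ubp5 against 3, 3, 4 and 0 in Col-0. In CPM the RLP43 groups did not overlap, with 2.82 to 4.07 in ubp5 and 0 to 1.50 in Col-0. AT4G18650 gave 1 count in all over ubp5 and 4 over Col-0. Without the count filter the log2 fold change was 1.81 (SE 0.56) for RLP43. It was -0.09 (SE 0.55) for EPF2, -1.39 (SE 0.95) for RMG1 and -1.27 (SE 1.25) for AT4G18650.

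Of 69 further listed genes, 43 were tested. The 69 include the 5 silenced genes and elements and the 4 genes listed as kept active by ROS1 given above. Of the 43, 3 were called higher (APUM9, AGO9 and CLSY1), beside 1.91% of all tested genes. Called lower were 4 (SHH1, DRD1, DRM3 and HTA12), beside 2.93%. APUM9 and AGO9 entered the test through their ubp5 libraries alone and DRD1 through its Col-0 libraries alone. The median log2 fold change of the 43 was 0.04 against -0.01 over all tested genes. The RNA-directed arms held calls in both directions. In the Pol IV arm, with 6 of 10 tested, CLSY1, a remodeller that brings Pol IV to chromatin, averaged 11.7 ± 3.14 CPM in ubp5 and 4.53 ± 0.545 CPM in Col-0, a log2 fold change of 1.33 (SE 0.26, adjusted p = 0.00687). SHH1, which recruits Pol IV by reading histone H3, gave 11, 6, 2 and 3 counts in ubp5 against 25, 23, 24 and 29 in Col-0, a log2 fold change of -1.78 (SE 0.36, adjusted p = 0.00709), and it entered the test through its Col-0 libraries, with 1 ubp5 library at the cutoff. Both calls held in all 8 fits with 1 library left out. CHR31, picked out after its values were seen and not tested, gave 11, 14, 10 and 8 counts in ubp5 against 2, 2, 2 and 4 in Col-0. The other untested genes of this arm did not follow it. CHR42 gave 0, 0, 2 and 0 counts in ubp5 against 5, 5, 2 and 1 in Col-0. DCL3 gave 4, 7, 1 and 4 against 6, 11, 12 and 13, and CHR40 gave 0 to 2 per library in both genotypes.

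In the Pol V arm, with 14 of 16 tested, AGO9, an Argonaute known from the germ line, gave 10, 18, 7 and 14 counts in ubp5 against 0, 0, 0 and 1 in Col-0. The ratio of its summed counts was 64.5 (exact 95% interval 11.0 to 2599), it entered the test through its ubp5 libraries alone, and the adjusted p was 0.00011 in edgeR. DRD1, a remodeller that Pol V needs, gave 3, 10, 4 and 4 counts in ubp5 against 16, 29, 21 and 16 in Col-0, a log2 fold change of -1.57 (SE 0.37, adjusted p = 0.0179). It entered the test through its Col-0 libraries alone, and the call was lost without ubp5 replicate 1 (adjusted p = 0.0608) or ubp5 replicate 4 (adjusted p = 0.0654). The other 12 tested genes of the arm did not pass.

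Of the methyltransferase partners, 3 of 11 were tested. DRM3, a relative of DRM2 without catalytic activity, averaged 4.25 ± 1.12 CPM in ubp5 and 8.63 ± 2.25 CPM in Col-0, a log2 fold change of -1.03 (SE 0.30, adjusted p = 0.0446) whose call held in 1 of the 8 fits with 1 library left out and not in DESeq2 (adjusted p = 0.120). The histone methyltransferase gene SUVH6 stood at -0.30 (adjusted p = 0.469). In the demethylation list, with 9 of 12 tested, IDM1, the histone acetyltransferase that prepares sites for ROS1, averaged 10.2 ± 1.95 CPM in ubp5 and 17.3 ± 2.87 CPM in Col-0. Its log2 fold change of -0.74 (SE 0.20, adjusted p = 0.0311) missed the fold threshold, and its adjusted p was under 0.05 in 3 of the 8 fits with 1 library left out. The ROS1 paralogue DML2 stood at 0.31 (adjusted p = 0.352). IDM2, picked out after its values were seen, had 0 counts in all ubp5 libraries against 1, 5, 3 and 2 in Col-0, at least 2.79-fold lower.

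In the list of heterochromatin genes, with 10 of 11 tested, HTA12, a histone H2A.W variant that compacts heterochromatin, gave 15, 11, 13 and 19 counts in ubp5 against 36, 38, 42 and 50 in Col-0. Its log2 fold change was -1.09 (SE 0.23, adjusted p = 0.0106), while the other H2A.W genes HTA6 and HTA7, added after their values were seen, stood at -0.07 and -0.21 and did not pass. The call of HTA12 was lost without ubp5 replicate 2, where the log2 fold change was -0.86. EDM2, which protects the transcription of genes that hold heterochromatin in their introns, stood at -0.43 (adjusted p = 0.165).

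**Figure D5:**
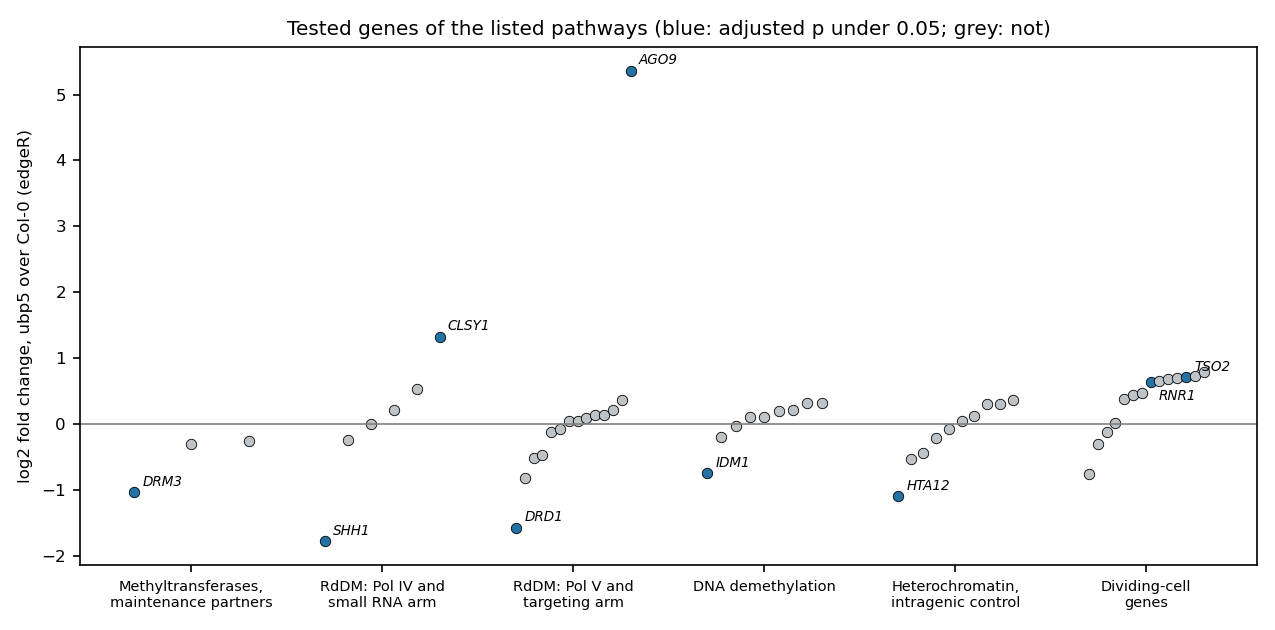
Log2 fold change, ubp5 over Col-0, of each tested gene of 5 pathway lists and of the dividing-cell list, ordered by size within a list (blue, adjusted p under 0.05 in edgeR; grey, not). Blue points lie on both sides of 0 in the Pol IV and Pol V lists, and the dividing-cell genes lie mostly above 0.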

How the data were processed

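RNA of 12-day-old seedlings was sequenced from the 3' end in 4 ubp5 and 4 Col-0 libraries. The authors trimmed reads with BRBseqTools, mapped them with STAR 2.7.8a to TAIR10 with Araport11, and deposited raw counts, 1 file per library, in which each molecular identifier adds 1 to the gene it matches in sense. Identifiers remove PCR copies, so low counts carry mainly counting error, and reads of near-identical copies cannot be placed. Totals were 1440510 to 2997743 counts.

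Counts were tested with edgeR 4.0.16 in R 4.3.3 (TMM, filterByExpr, quasi-likelihood, no covariates, common dispersion 0.0266) with Benjamini-Hochberg adjustment over 15649 genes. SEs are the log2 fold change over the root of F. No 2 libraries of 1 genotype agreed within sampling noise (lowest chi-square per degree of freedom 1.64). On simulated counts of this comparison edgeR recovered 200 of 200 genes changed 4-fold, with 4 false calls, and DESeq2 1.42.0 recovered 198 with 0. The changed genes were drawn from those well counted in the smallest library, with a common dispersion for all genes. Recovery at lower counts or smaller folds, as for most of the 10 genes, was not simulated. The exact interval of a ratio was Clopper-Pearson, and a group at 0 was set at a floor of 3 counts. Intervals and floors cover counting error only. Figures were drawn with Python 3.11.15.

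Names, positions and sequences are those of RefSeq for TAIR10.1, which matched 37051 of 37336 identifiers. The files hold no positions, and names of the lists that this annotation lacks were replaced by its own name or the locus.

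The text names the 10 genes, UBP5, genes of each list with an adjusted p under 0.05 (up to 2 by smallest p where fewer passed), the 3 most abundant dividing-cell genes and the 3 genes most like ROS1. The 3 tested dividing-cell genes at a negative log2 fold change were added after their values were seen. Members and lists were chosen with earlier results of these data known. Alternatives were DESeq2, its size factors in edgeR, no count filter, a mean count of at least 10, the replicate number as a block, organelle genes left out, no fold threshold, and each library left out in turn.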

Additional observations from a re-analysis of the deposited data

Results flagged for a closer look

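In 3 of the 38 groups of 4 libraries that were checked, 1 library lay far from the others by Dixon's criterion, which chance meets in about 1 of 20 groups. CMT2 stood at 10.3 CPM in Col-0 replicate 2, against 5.35 to 6.07 CPM in the other Col-0 libraries, and this library alone brought the Col-0 values into the ubp5 range. The other cases each rest on 1 molecule: SDC stood at 0.397 CPM in Col-0 replicate 2 and AGO9 at 0.334 CPM in Col-0 replicate 4, with 0 in the other Col-0 libraries.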

How the results depend on the processing

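Of the single genes named, 217 values under an alternative kept their direction and whether the gene was called, 16 lost a call, 2 gained one and 4 changed sign. Leaving out the fold threshold keeps the values of the main fit, so its entries are no separate check. Both gained calls, of DRM2 and IDM1, came from that setting, with unchanged values. Among those 217, the adjusted p alone rose above 0.05 in 11 of DRM2 and 7 of IDM1, for example to 0.166 and 0.0929 in DESeq2. The sign changes were all of NRPE1, near 0 throughout: -0.0039 with the replicate block, -0.08 without ubp5 replicate 3, -0.04 without Col-0 replicate 1 and -0.14 without Col-0 replicate 3, within a range of -0.14 to 0.17 over the libraries left out. Genes called higher numbered 719 and lower 992 without the fold threshold, 345 and 478 in DESeq2, 445 and 665 without the count filter, and 249 to 465 and 402 to 493 with 1 library left out. Of the 10 genes, the count called higher was 1 in DESeq2 and 1 without the count filter, and 0 to 1 with 1 library left out. That gene was SDC, selected on these values, so its entry is no test. Called lower were 2 without the fold threshold (ROS1 and DRM2), 0 with the replicate block and 0 to 1 with 1 library left out. Of the 69 further listed genes, 5 were called higher in DESeq2 and 5 without the count filter. With 1 library left out, 3 to 4 were called higher and 2 to 4 lower. Replicate numbers are shared by both genotypes, but deviations of same-numbered libraries correlated at -0.093, -0.118, 0.005 and 0.035, and only number 4 matched itself best, so the numbers do not pair the libraries. With the replicate block 269 genes were called higher and 396 lower, ROS1 had a log2 fold change of -1.28 (adjusted p = 0.0534) and DRM3 -1.02 (adjusted p = 0.102). The causes of these shifts were not tested, except that a count filter decides which genes enter. Depth limited DDM1, NRPD1 and the genes listed as kept active by ROS1, which were read from 14 or fewer counts per library.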

Other observations

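SEP3, a floral MADS-box gene fixed as a marker of flowers, gave 27, 52, 19 and 20 counts in ubp5 and 35, 39, 35 and 34 in Col-0, while the floral gene AP1 gave 0 counts in all ubp5 libraries and 0 to 2 in Col-0. AT5G13970, which overlaps KYP on the other strand, gave 9, 13, 9 and 7 counts in ubp5 against 55, 42, 44 and 51 in Col-0, a log2 fold change of -1.92 (SE 0.22, adjusted p = 0.00021, edgeR), and was singled out after its values were seen.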
